A study of Mus musculus with 40 samples.

Results

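The tripartite motif (Trim) family was followed through mouse oocyte growth as every probe set whose single platform gene symbol begins with Trim and a digit, with 1 symbol set aside. This gave 109 of 45037 probe sets, 63 on the 430A array and 46 on the 430B array, for 57 of 18193 genes with such a symbol. Oocytes of SJLB6 females were taken at 5 follicle stages: primordial (2 days old, 400 oocytes a sample), primary (6 days, 90 oocytes), secondary (12 days, 60 oocytes), small antral (17 days, 30 oocytes) and large antral (24 days, 20 oocytes). Each stage had 4 arrays of each type, 40 samples in all. The labels call the replicates biological without saying which animals gave them. P-values here set stage differences against the spread between these samples, which may differ from that between animals. At the primordial stage the deposited columns are not independent of each other, as described below. Mouse age and pool size changed with every stage and cannot be told apart from it. In such pools, fewer oocytes holding a transcript and less of it in each oocyte cannot be told apart either.

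Most tripartite motif proteins carry a RING finger that passes ubiquitin to a target, then B-boxes and a coiled coil through which the proteins pair. The end of the protein sets the subgroup: a SPRY domain in most, PHD finger and bromodomain in chromatin readers such as Trim24 and Trim33, NHL repeats in RNA-binding members such as Trim71. The family is best known for antiviral defence, and single members act in chromatin silencing, the cell cycle and RNA repression, processes at work in a growing oocyte that stores transcripts for the embryo.

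Values are MAS5 signals scaled so that each array had a 2% trimmed mean of 500, and are called signals here. A change is a difference of log2(signal + 32), later stage minus earlier stage, which makes a change look smaller where signals are low. Testing required a signal of 100 on 4 or more of the 20 arrays of a type. That left 85 of the 109 probe sets and 48 of the 57 genes, while the other 9 genes (Trim12a, Trim34a, Trim47, Trim54, Trim63, Trim66, Trim69, Trim72 and Trim80) had no signal above 177.5 on any array. A call is a limma adjusted p (Benjamini-Hochberg within the array type) under 0.05, and errors given after a change are standard errors. Each gene is described by 1 probe set, and for some genes others are named where they differ.

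Doubts about 2 sets of arrays touch the results. The deposited columns of primordial replicates 2 to 4 behave as means of a sample with replicate 1: doubling such a value and subtracting replicate 1 gave a negative number for 0 to 10 of the 22626 on 430A and never among the 22411 of 430B. The same step in pairs of the other stages gave 1122 to 2857 and 1989 to 3790 negative values. Replicate 1 then holds 62.5% of the deposited primordial mean, so results of the primordial stage are given with unmixed values (the deposited value doubled, minus replicate 1) beside it. Such mixing also makes the primordial arrays more alike. On 430B, replicate 1 correlated with the others at a mean of 0.945 as deposited and 0.8 unmixed. P-values from deposited primordial values thus rest on too small a spread between samples. On 430B, the protocols of 3 small antral arrays give the secondary stage's mouse age and number of oocytes, and calls that rest on them are given without them too. Markers of oocytes (9 genes) summed to signals of 50372 to 113711 over all arrays, against 2525 to 4011 for 7 granulosa cell genes, 651 to 1465 for 7 stroma and theca genes and 587 to 1007 for 6 leukocyte genes.

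Trim60, Trim61 and Trim75 are neighbours on chromosome 8, and their signals rose together at the step into growth. RefSeq places Trim61 inside the span of Trim60, and both have the same 300 bases around the start (250 before, 50 after), so transcripts of the pair may not be told apart by their probe sets. The windows of these genes, of Trim31 (the member with the largest rise among growing oocytes) and of Trim25 (the member with the largest fall from the primordial stage) are shown because the results turn on them. They are RefSeq windows on GRCm38.p6, 5′ to 3′ on the gene's strand: chr8:65018639-65018938 (minus strand) for Trim60 and Trim61, chr8:64987595-64987894 (minus strand) for Trim75, chr17:36897880-36898179 (plus strand) for Trim31 and chr11:88999153-88999452 (plus strand) for Trim25. Capitals mark TAATTG on either strand, the element of the oocyte homeobox protein Nobox, in the first 3, and E-boxes (CANNTG, the same on both strands) in Trim25. The first 3 windows hold E-boxes too, left unmarked: 3 for Trim60 and Trim61, 2 for Trim75 and 2 for Trim31. The marks thus set no contrast between members that rose and fell.
Trim60 and Trim61: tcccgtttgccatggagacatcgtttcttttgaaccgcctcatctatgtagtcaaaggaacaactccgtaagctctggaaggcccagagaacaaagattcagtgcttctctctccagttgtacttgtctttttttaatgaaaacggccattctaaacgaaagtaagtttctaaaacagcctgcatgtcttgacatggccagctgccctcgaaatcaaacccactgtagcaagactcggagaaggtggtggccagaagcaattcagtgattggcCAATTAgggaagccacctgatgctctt
Trim75: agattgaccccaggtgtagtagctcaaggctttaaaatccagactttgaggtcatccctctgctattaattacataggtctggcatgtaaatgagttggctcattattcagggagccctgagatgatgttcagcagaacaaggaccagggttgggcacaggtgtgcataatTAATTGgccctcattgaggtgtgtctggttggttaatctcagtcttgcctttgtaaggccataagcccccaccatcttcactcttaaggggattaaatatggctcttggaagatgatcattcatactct
Trim31: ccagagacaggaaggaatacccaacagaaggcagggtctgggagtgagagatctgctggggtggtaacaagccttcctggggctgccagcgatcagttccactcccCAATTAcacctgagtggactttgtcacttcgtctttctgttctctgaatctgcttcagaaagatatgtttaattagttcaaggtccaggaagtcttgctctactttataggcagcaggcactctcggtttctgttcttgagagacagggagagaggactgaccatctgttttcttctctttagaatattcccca
Trim25: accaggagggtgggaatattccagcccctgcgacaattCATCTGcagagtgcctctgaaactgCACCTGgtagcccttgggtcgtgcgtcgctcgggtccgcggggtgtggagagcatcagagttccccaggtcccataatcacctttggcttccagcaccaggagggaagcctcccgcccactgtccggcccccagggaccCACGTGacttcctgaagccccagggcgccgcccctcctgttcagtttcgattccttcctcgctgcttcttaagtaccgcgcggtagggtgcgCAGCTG
TAATTG lay in 8 of 60 windows of 46 member genes (13.3%), the shared window of Trim60 and Trim61 counted for each, and in 8.0% of 32851 windows of all genes. The member genes with it were Trim2, Trim6, Trim31, Trim37, Trim60, Trim61, Trim68 and Trim75. E-boxes lay in 47 of the 60 windows (78.3%) and in 72.3% of all windows. These matches describe letters and not bound sites.

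Trim61 gave signals of 18412, 17796, 14449 and 15418 in primary oocytes, against 718, 848, 676 and 797 in primordial oocytes. Every growing oocyte sample lay far above every primordial one, and samples of the later stages overlapped the primary ones, with means of 20520 in secondary, 19739 in small antral and 18242 in large antral oocytes. The change to the primary stage was 4.38 ± 0.11 (adjusted p = 4.04e-19), and 4.31 with unmixed values (adjusted p = 1.76e-16). A second Trim61 probe set rose by 4.20 ± 0.13 at the same step, with 4.77 unmixed, and by 0.34 ± 0.11 in large antral over primary oocytes (adjusted p = 0.0385). None of the later steps of the first probe set was called, the largest being 0.32 ± 0.11 from primary to secondary (adjusted p = 0.133).

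Trim75 followed the same course with a slow further rise. Its signals were 9768, 9367, 8522 and 7368 in primary oocytes, against 876, 1023, 1028 and 1119 in primordial oocytes. The change was 3.07 ± 0.11 (adjusted p = 5.02e-17), and 2.89 with unmixed values. In large antral oocytes it reached 16037, 15287, 16864 and 13335, above all 4 primary samples, a change of 0.81 ± 0.10 from the primary stage (adjusted p = 3.7e-06). Within this span the step from primary to secondary was called at 0.47 ± 0.10 (adjusted p = 0.0057), a call lost with arrays scaled to the same median and without the mean-variance trend. The step from small to large antral, 0.40 ± 0.10 (adjusted p = 0.0492), was lost in 13 of 16 fits that each left out 1 array, with values of 0.33 to 0.47. Without the 3 small antral arrays of doubtful label it was 0.62 (adjusted p = 0.0494).

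Trim60 gave signals of 1786, 1595, 2103 and 1585 in primary oocytes, against 399, 454, 446 and 578 in primordial oocytes. It rose by 1.85 ± 0.12 (adjusted p = 4.84e-12), and by 1.65 with unmixed values. Its means were 2216 in secondary, 2331 in small antral and 1871 in large antral oocytes, and the secondary and large antral samples overlapped the primary ones. A call from primary to secondary (0.33 ± 0.11, adjusted p = 0.0426) was lost in 8 of 16 fits that each left out 1 array, with values of 0.28 to 0.41.

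**Figure D1:**
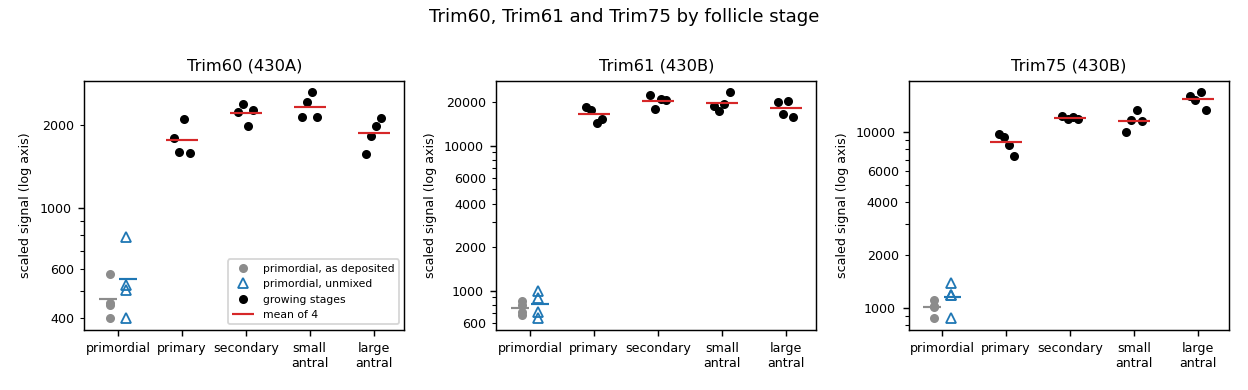
Signals (log axis) of Trim60, Trim61 and Trim75 on each array at the 5 follicle stages, with bars at the mean of 4 arrays; primordial values are drawn as deposited (grey) and unmixed (blue triangles). For each gene every growing sample lies above every primordial one, and Trim61 goes to a mean of 16519 in primary oocytes, against 760 in primordial oocytes.

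Other members that rose into the primary stage with at least a change of 1 were Trim15, Trim30d, Trim13, Trim56 and Trim6. Trim13, an E3 ligase of the endoplasmic reticulum membrane, had 1985, 1859, 2073 and 1929 in primary oocytes, against 544, 554, 508 and 463 in primordial oocytes. Its change was 1.86 ± 0.09 (adjusted p = 1.44e-14), with 1.90 unmixed, and the groups stood well apart. Trim15, known from focal adhesions, had 464, 333, 431 and 350 in primary oocytes, against 40.7, 81.1, 41.4 and 64.3 in primordial oocytes, where no deposited value reached 100. It rose by 2.28 ± 0.15 (adjusted p = 3.25e-12), with 2.06 unmixed.

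Trim6 and Trim30d are among the chromosome 7 members. Trim6, whose human form makes free ubiquitin chains in antiviral signalling, had 349, 330, 337 and 354 in primary oocytes on 430A. In primordial oocytes it had 135, 182, 146 and 159.9, a change to the primary stage of 1.0 ± 0.13 (adjusted p = 3.23e-07) and 0.83 unmixed. A 430B probe set of Trim6 averaged lower over growing samples (284) than over all arrays (318). Its deposited primordial mean thus lay above its growing mean, the other way from 430A. That 430B probe set was not called lower into the primary stage. Trim30d had 481, 470, 557 and 408 in primary oocytes, against 44.1, 48.6, 327 and 63.8 in primordial oocytes. It rose by 2.08 ± 0.39 (adjusted p = 2.15e-04). Primordial replicate 3 stood far above the rest, at 613 unmixed and thus above the primary samples, and the change was 1.77 with unmixed values (adjusted p = 0.00771).

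Trim56, a ligase of cytosolic DNA sensing, had 162, 56.8, 159 and 262 in primary oocytes, against 31.7, 35.5, 43.0 and 31.3 in primordial oocytes. Its call at 1.39 ± 0.46 (adjusted p = 0.024) was lost with unmixed values (1.31, adjusted p = 0.0539) and in 4 of 20 fits that each left out 1 array (1.15 to 1.72). Trim36, a microtubule-binding member that in Xenopus eggs acts at the vegetal cortex, had 1231, 1469.9, 1266 and 1507 in primary oocytes, against 731, 564, 739 and 694 in primordial oocytes. It rose by 0.97 ± 0.12 (adjusted p = 5.38e-07), with 1.09 unmixed, and both groups stayed apart. Trim24 rose by 0.64 ± 0.11 (adjusted p = 1.3e-05), with 0.54 unmixed, and Trim32, an NHL member studied in muscle, by 0.57 ± 0.12 (adjusted p = 3.14e-04), a call lost with unmixed values (0.38, adjusted p = 0.0561). A second 430A probe set of Trim24 averaged higher over growing samples (567) than over all 20 arrays (519). Its 430B probe set averaged lower (193 and 215), so its deposited primordial mean lay above its growing mean, the other way from 430A. That 430B probe set was not called lower into the primary stage. Trim39, a RING ligase linked to cell cycle control, was called at 0.36 ± 0.13 (adjusted p = 0.0258) and lost unmixed (0.18, adjusted p = 0.389), as well as in 3 of 20 fits that left out 1 array (0.26 to 0.42).

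As deposited, signals of Trim25, Trim45, Trim7 and Trim67 were lower once growth had begun. Trim25, the ligase that activates the RNA sensor RIG-I, had 130, 177, 147 and 115 in primary oocytes, against 1443, 1455, 1780.1 and 1778 in primordial oocytes. It fell by 3.25 ± 0.19 on the log2 scale (adjusted p = 3.97e-13), and by 3.41 unmixed (adjusted p = 3.45e-11), while a second probe set fell by 1.77 ± 0.25 (1.76 unmixed). The Trim25 groups were widely separated, and large antral samples gave 69.7, 86.3, 84.9 and 83.3, all under 100. The step from secondary to small antral was called for Trim25 at -0.86 ± 0.21 (adjusted p = 0.00661), and that from primary to large antral at -0.61 ± 0.21 (adjusted p = 0.0242), lost in 3 of 16 fits that each left out 1 array (-0.69 to -0.52).

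Trim45, a member with a filamin repeat, had 80.6, 69.6, 56.3 and 115 in primary oocytes, against 1119, 600.3, 922 and 595 in primordial oocytes. As deposited it fell by 2.88 ± 0.30 (adjusted p = 5.35e-08). Unmixed values of the primordial replicates 2 to 4 were 96.9, 739 and 91.4, so 2 of 4 primordial samples then overlapped the primary ones, and the change was -1.64 (adjusted p = 0.0277). Trim7, which binds the glycogen primer glycogenin, had 305, 47.8, 59.4 and 77.7 in primary oocytes, against 469, 459, 439.6 and 511 in primordial oocytes. It fell by 1.97 ± 0.47 (adjusted p = 0.0023), and by 1.98 unmixed, a call lost where primordial replicate 1 alone stood for its stage. Trim67, known from neurons, had 39.5, 15.9, 46.3 and 63.9 in primary oocytes, against 243, 152, 141 and 142 in primordial oocytes. That fall of 1.47 ± 0.36 (adjusted p = 0.00242) was lost with unmixed values (-0.64, adjusted p = 0.314), with replicates 2 to 4 then at 41.4 to 64.1. Trim45 and Trim67 each reached a signal of 100 on 5 arrays, among them all 4 primordial ones as deposited. The unmixed fit kept the filter on deposited values, and with unmixed values both genes would miss its minimum of 4 arrays. Their unmixed results, the Trim45 call included, thus come from probe sets that would not then have been tested.

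**Figure D2:**
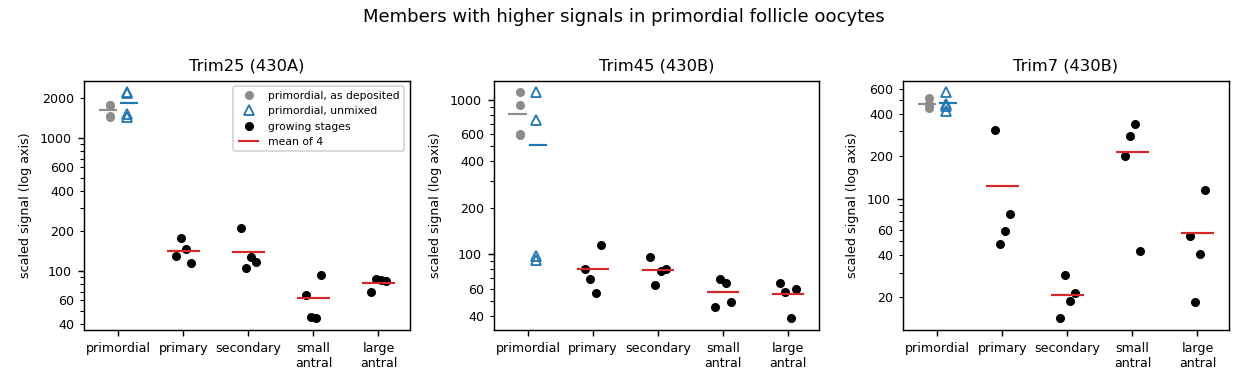
Signals (log axis) of Trim25, Trim45 and Trim7 on each array at the 5 follicle stages, with bars at the mean of 4 arrays; primordial values are drawn as deposited (grey) and unmixed (blue triangles). Trim25 averages 142 in primary oocytes, against 1614 in primordial oocytes, and 2 unmixed Trim45 values lie among the primary samples.

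Over the family, 23 of 85 probe sets (27.1%) rose from primordial to primary oocytes and 19 (22.4%) fell. Of all 34960 probe sets tested, 18.6% rose and 24.3% fell. With unmixed values the members' counts were 15 up and 11 down (17.6% and 12.9%), beside 16.8% and 18.4% of all, so the share that rose stood near the background. Members' median change was -0.10, against -0.16 for all probe sets tested. Scaling the arrays to the same median moved the median of all probe sets at this step from -0.08 to 0.06 on 430A and from -0.23 to 0.05 on 430B, and gave 27 members up and 10 down, with 23.8% of all probe sets up and 16.8% down, so small changes at this step depend on the scaling. By gene, 16 of 48 rose and 10 fell, or 12 and 6 with unmixed values. Both counts of rises include Trim33 by its 430A probe set, although its 430B probe set was called lower. Marker sums differed at this step too: 9 oocyte genes gave 96036 to 101059 in primary oocytes, against 50372 to 64316 in primordial oocytes, and 7 stroma and theca genes 651 to 868, against 991 to 1465. Their part in the members' changes was not tested.

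Among growing oocytes, 37 of the 85 probe sets changed over the 4 stages by limma's F test (43.5%), against 30.7% of all probe sets. Large antral over primary, 16 rose (18.8%, beside 12.8% of all) and 15 fell (17.6%, beside 14.0% of all). Single steps held fewer calls. Secondary over primary, 12 rose and 5 fell, beside 6.55% and 5.09% of all. Small antral over secondary, 3 rose and 8 fell, beside 4.21% and 6.48%. Large over small antral, 3 rose and 7 fell, beside 2.47% and 3.55%. By array type, 20.0% of the 45 member probe sets on 430A rose in secondary over primary oocytes, against 10.5% of all there, and 7.5% of the 40 on 430B, against 3.31% of all. Median changes of the members lay between -0.08 and 0.06 in these 4 comparisons, against -0.02 and 0.005 for all probe sets tested.

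**Figure D3:**
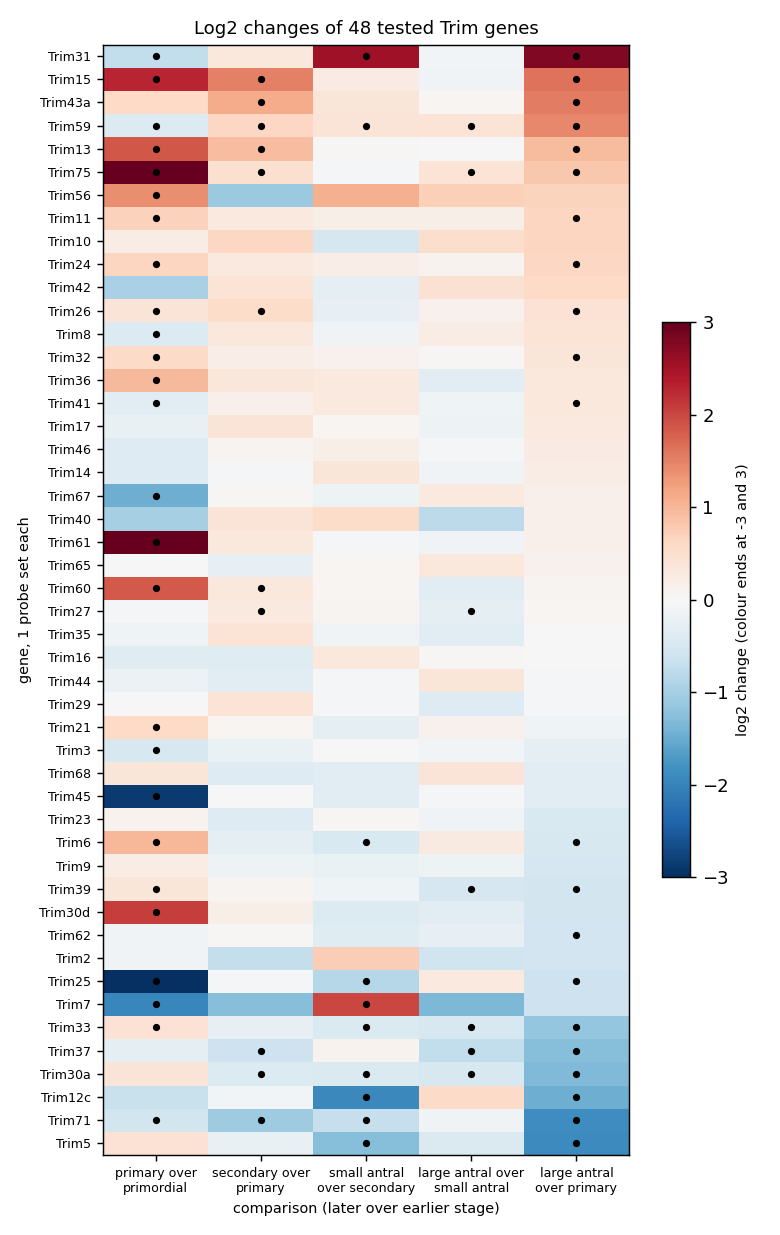
Log2 changes (colour) of the 48 Trim genes tested, 1 probe set each, in the 5 comparisons, ordered by the change from primary to large antral; dots mark calls. Trim61 and Trim75 have the strongest rises in the first column and Trim31, at the top, in the last, where 11 genes rose and 10 fell.

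Members that rose during growth did so at different steps. Trim31, a RING ligase that in mice acts on the antiviral adaptor Mavs, was low until the antrum formed: its signals were 25.5, 74.0, 70.4 and 40.7 in primary oocytes, 78.1, 59.2, 47.3 and 100.5 in secondary, 551, 629, 539.9 and 534 in small antral, and 484, 509.9, 534 and 596 in large antral oocytes. Both antral groups lay far above both preantral ones and overlapped each other. The step to the small antral stage was 2.55 ± 0.19 (adjusted p = 2.87e-08), and large antral over primary was 2.77 ± 0.19 (adjusted p = 7.03e-10). From the primordial stage (94.9, 62.4, 136 and 141) it was called lower in primary oocytes at -0.74 ± 0.21 (adjusted p = 0.00429), with overlapping samples; unmixed it was -0.78 (adjusted p = 0.0339), and the call was lost with primordial replicate 1 alone.

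Trim15 kept rising after the primary stage. It had 1348, 932, 1293 and 1143 in secondary oocytes, against the 333 to 464 of the primary ones, a change of 1.5 ± 0.12 (adjusted p = 6.73e-08), and then stayed level, with 1312, 1271, 1280.2 and 1267 in large antral oocytes. Trim15 in large antral over primary oocytes was up by 1.64 ± 0.12 (adjusted p = 2.13e-09). Trim13 took the same step: 4172, 3443, 3837 and 3591 in secondary oocytes, against the 1859 to 2073 of the primary ones (0.93 ± 0.08, adjusted p = 9.5e-08). Its later means, 3820 in small antral and 3835 in large antral oocytes, overlapped the secondary samples.

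Trim59, a membrane-anchored RING protein studied in tumours and macrophages, climbed through every stage of growth. Its signals were 482, 539.5, 389 and 347 in primary oocytes, 695, 779, 594 and 701 in secondary, 794, 1020.1, 864 and 989.9 in small antral, and 1244, 1330, 1162 and 1171 in large antral oocytes. Consecutive groups did not overlap, and large antral over primary was 1.43 ± 0.13 (adjusted p = 2.21e-08), with 1.58 ± 0.20 from a 430B probe set. The first step, 0.63 ± 0.13, had an adjusted p of 0.00151. The next 2, 0.39 ± 0.13 (adjusted p = 0.0408) and 0.41 ± 0.13 (adjusted p = 0.042), were each lost in 7 of 16 fits that left out 1 array (0.32 to 0.45 and 0.35 to 0.46). Entering growth, Trim59 fell by 0.42 ± 0.12 (adjusted p = 0.00582) and by 0.55 unmixed, with 0.94 ± 0.20 on 430B (1.10 unmixed), and the 430A call was lost with arrays scaled to the same median and with primordial replicate 1 alone.

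Trim43a, of a group known from preimplantation embryos, had 297, 477, 620 and 495 in large antral oocytes, against 207, 245, 46.3 and 123 in primary oocytes, without overlap (1.54 ± 0.32, adjusted p = 6.03e-04). Its step to the secondary stage, 1.11 ± 0.32 (adjusted p = 0.0194), had overlapping samples and was lost in 3 of 16 fits that left out 1 array (0.74 to 1.35). The chromatin reader Trim24 had 1777, 2146, 1950 and 1816 in large antral oocytes, against 1226, 1236, 1319 and 1188 in primary oocytes (0.61 ± 0.10, adjusted p = 7.33e-05). No single step of Trim24 among growing stages was called, the first coming nearest at 0.29 (adjusted p = 0.0567). Trim32 was up by 0.37 ± 0.11 in large antral over primary oocytes (adjusted p = 0.0108).

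Marker signals moved with stage here as well. The 3 endothelial genes summed to 453 to 573 in large antral oocytes, against 271 to 309.7 in primary oocytes, with both tested genes called higher (Kdr and Pecam1), and the 7 granulosa genes to 3239 to 3994.5, against 2724 to 4011, with 1 of 6 tested granulosa genes (Inha) called higher by 1.25 ± 0.14. The 9 oocyte genes summed to 67742 to 75954 in large antral oocytes, against 96036 to 101059 in primary oocytes, with 3 called higher and 6 lower. Pecam1 had a mean signal of 62.6 over all arrays, below the minimum used for testing. The part of these marker genes in the members' changes during growth was not tested.

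**Figure D4:**
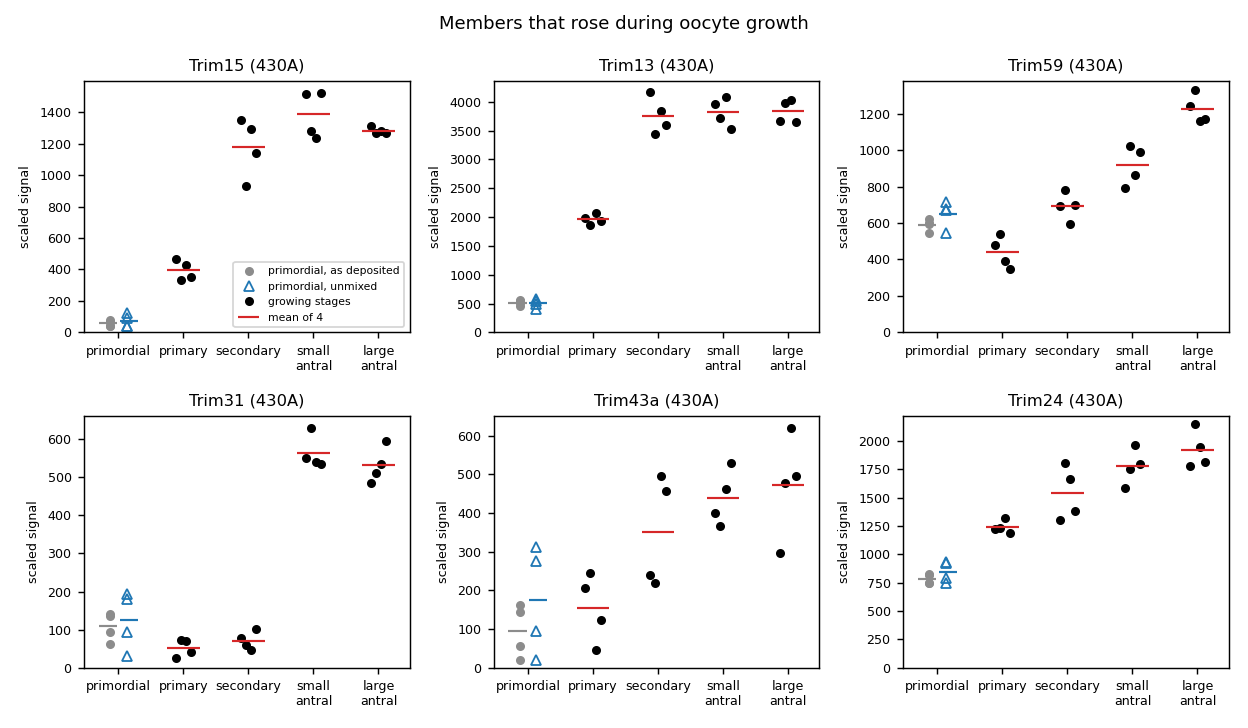
Signals of Trim15, Trim13, Trim59, Trim31, Trim43a and Trim24 on each array at the 5 follicle stages, with bars at the mean of 4 arrays; primordial values are drawn as deposited (grey) and unmixed (blue triangles). Trim31 averages 564 in small antral oocytes, against 71.3 in secondary oocytes, while Trim15 and Trim13 level off at the secondary stage.

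Trim71 (LIN41), an RNA-binding NHL protein that in nematodes keeps growing oocytes from maturing too early, fell through growth. Its signals were 2959, 2765, 2014 and 1507 in primary oocytes, 1205, 1109, 1107 and 830.4 in secondary, 576, 472, 763 and 813 in small antral, and 605, 551, 603 and 619.5 in large antral oocytes. Large antral over primary was -1.86 ± 0.20 (adjusted p = 5.11e-07), without overlap, and -3.35 ± 0.31 (adjusted p = 6.1e-08) on a second probe set whose large antral mean was 98.6. The first step, -1.06 ± 0.20 (adjusted p = 0.00176), was the largest. The second, -0.69 ± 0.20 (adjusted p = 0.0488), was lost in 11 of 16 fits that each left out 1 array (-0.80 to -0.55), and without the 3 small antral arrays of doubtful label (-0.83, adjusted p = 0.205). Primordial samples gave 3497, 3095, 3127 and 3385, and the step to primary, -0.54 ± 0.18 (adjusted p = 0.024), was lost with unmixed values (-0.46, adjusted p = 0.102) and in 4 of 20 fits without 1 array (-0.68 to -0.36).

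Trim33 (TIF1 gamma), a chromatin reader and regulator of Smad signalling, had 1892, 2625, 2213 and 2609 in large antral oocytes, against 5465, 6205, 4562 and 4769.5 in primary oocytes. The groups were widely apart (-1.16 ± 0.11, adjusted p = 8.05e-08), and a 430B probe set fell by 1.62 ± 0.22. Small antral over secondary (-0.43 ± 0.11, adjusted p = 0.0111) and large over small antral (-0.49 ± 0.11, adjusted p = 0.0091) were called. On entry into growth the probe sets went opposite ways: 0.43 ± 0.11 on 430A (0.41 unmixed) and -1.11 ± 0.19 on 430B (-0.93 unmixed), both called, so no direction is given for Trim33 there.

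Trim37, a MATH domain ligase known from peroxisome import and centrosome control, had 1290.0, 1237, 1400 and 1298 in large antral oocytes, against 4587, 2462, 3134 and 2930 in primary oocytes. It fell by 1.27 ± 0.16 on the log2 scale (adjusted p = 1.76e-06), with all large antral samples below all others of the growing stages. The steps called were secondary over primary (-0.62 ± 0.16, adjusted p = 0.00817, overlapping samples) and large over small antral (-0.74 ± 0.16, adjusted p = 0.005). Of the other 4 Trim37 probe sets tested, none was called from primary to large antral. Trim39 had 375, 553, 531 and 393 in large antral oocytes, against 644, 619, 847 and 657 in primary oocytes (-0.56 ± 0.13, adjusted p = 0.00205). Its drop in large over small antral, -0.51 ± 0.13 (adjusted p = 0.017), was lost in 2 of 16 fits without 1 array (-0.60 to -0.43).

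The chromosome 7 neighbours Trim6, Trim34a, Trim5, Trim12a, Trim12c, Trim30a and Trim30d, a group of close paralogs whose probe sets may share transcripts, had 5 tested genes. In small antral over secondary oocytes 4 of these fell and 0 rose, and in large antral over primary oocytes again 4 fell and 0 rose. Of all probe sets tested, 6.48% and 14.0% fell in these comparisons. Trim5, relative of the primate retrovirus restriction factor, had 121, 155, 159 and 268 in large antral oocytes, against 793, 679.9, 890 and 587 in primary oocytes (-1.92 ± 0.25, adjusted p = 6.64e-06). Its main step was small antral over secondary, 339.9, 261, 185 and 196 against 508, 623, 625 and 740.0, without overlap (-1.27 ± 0.25, adjusted p = 0.00292). Without the 3 small antral arrays of doubtful label that step was -0.81 (adjusted p = 0.395).

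Trim12c, like Trim5 related to that restriction factor, had 57.8, 40.0, 61.4 and 172 in small antral oocytes, against 258, 336, 514 and 428 in secondary oocytes. The step, -1.94 ± 0.40 (adjusted p = 0.00418), kept its size without the doubtful arrays (-2.17) but not its call (adjusted p = 0.0653). In large antral over primary oocytes Trim12c was down by 1.46 on the log2 scale (SE 0.40, adjusted p = 0.014), lost in 2 of 16 fits without 1 array (-1.68 to -1.15). Trim30a, which in mice limits NF-kappa-B signalling after Toll-like receptors, had 344, 282, 418 and 386 in large antral oocytes, against 1016, 787, 1017 and 911 in primary oocytes. That fall of 1.31 ± 0.13 (adjusted p = 9.75e-08) came in 3 steps of -0.40, -0.43 and -0.49, each called and each lost in 4 to 6 of 16 fits that left out 1 array (-0.48 to -0.36, -0.50 to -0.36 and -0.56 to -0.39). By its 430A probe set, Trim6 fell by 0.48 ± 0.12 over the same span (adjusted p = 0.00368), with small antral over secondary at -0.46 ± 0.12 (adjusted p = 0.0133).

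**Figure D5:**
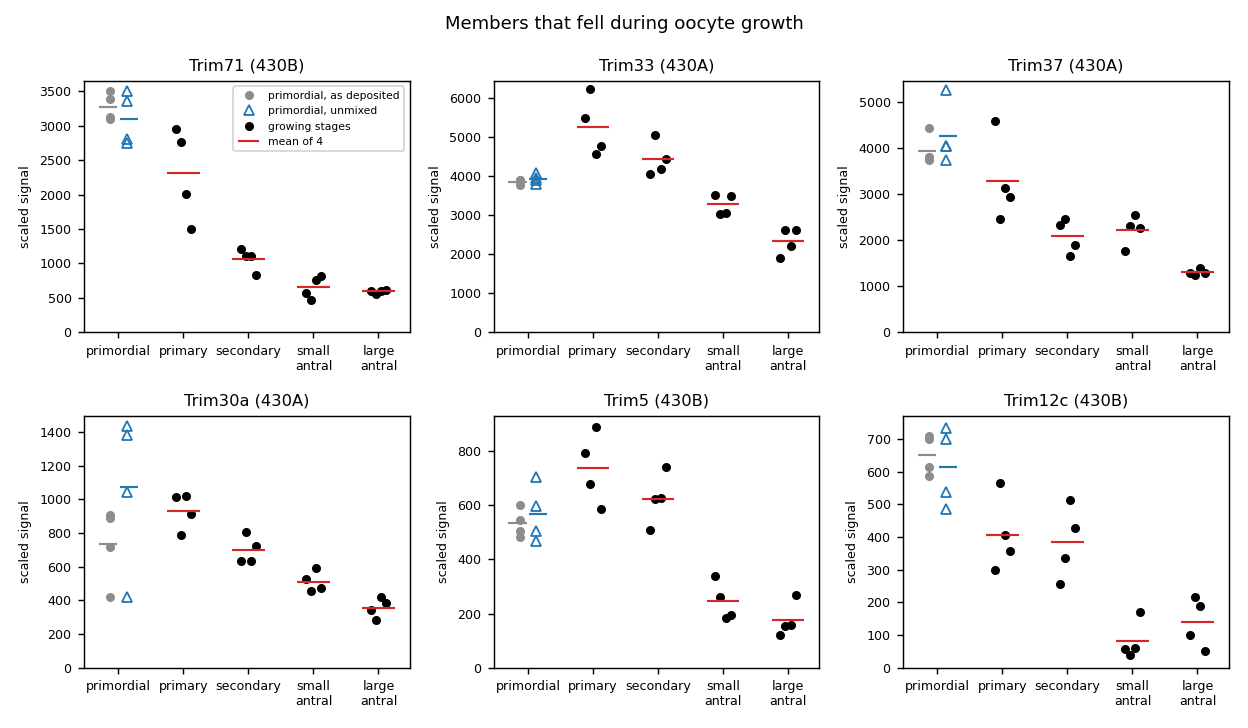
Signals of Trim71, Trim33, Trim37, Trim30a, Trim5 and Trim12c on each array at the 5 follicle stages, with bars at the mean of 4 arrays; primordial values are drawn as deposited (grey) and unmixed (blue triangles). In all 6 the large antral samples lie below the primary ones, with means of 595 and 2311 for Trim71.

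Other neighbour groups went other ways. On chromosome 17, Trim26, Trim15, Trim10, Trim40 and Trim31 had 3 rises and 0 falls in large antral over primary oocytes. All but Trim40 were read on 430A, where 19.6% of all probe sets rose and 21.6% fell (12.8% and 14.0% on both array types). The rises were those of Trim15, Trim31 and Trim26 (0.42 ± 0.17, adjusted p = 0.048), the last lost in 9 of 16 fits that left out 1 array. Trim7, on chromosome 11, was called higher at 1 step of growth, with samples that varied widely: 201, 278, 338 and 42.4 in small antral oocytes, against 14.2, 28.6, 19.0 and 21.4 in secondary oocytes (2.01 ± 0.51, adjusted p = 0.0226). The large antral samples, at 54.6, 18.6, 40.8 and 115, spanned the lowest small antral one, and all primordial samples lay above every small antral one. That Trim7 call was lost in 6 of 16 fits without 1 array (1.74 to 2.51) and without the 3 doubtful arrays (2.15, adjusted p = 0.178).

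Several members of known function moved little or gave no single answer. Trim27, a ligase abundant in male germ cells, had 6310.1, 6772, 6339 and 6476 in large antral oocytes, against 5335, 6628, 6625 and 6192 in primary oocytes (0.07 ± 0.08, adjusted p = 0.553). Steps of 0.29 (secondary over primary) and -0.30 (large over small antral) were called, and were lost in 3 and 4 of 16 fits without 1 array (0.22 to 0.32 and -0.34 to -0.25). Both were also lost with arrays scaled to the same median, without the mean-variance trend and with all 20 arrays. The second was lost with quantile normalization too. Into the primary stage this probe set had no call. Its primordial replicate 1 stood at 4067.2, against 9771.5 to 12171.3 in the unmixed replicates 2 to 4. One further probe set of Trim27 rose by 1.24 ± 0.11 at that step, 1.53 unmixed, and another was called lower. The further one also rose by 0.46 ± 0.11 in large over small antral oocytes. Probe sets with opposite calls occurred in 3 comparisons of 2 genes, Trim27 and Trim33, among the 25 genes with more than 1 tested.

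Trim23, with a GTP-binding ARF domain, had 58.5, 94.2, 93.8 and 74.7 in large antral oocytes, against 93.9, 177, 101 and 126 in primary oocytes (-0.46 ± 0.23, adjusted p = 0.116). Its 430B probe set, with means of 223 in large antral and 674 in primary oocytes, fell by 1.51 ± 0.23 (adjusted p = 3.88e-05). Trim2, an NHL ligase of neurons, stayed near the minimum on its tested 430A probe set, with means of 116, 104, 53.6, 106 and 64.4 from primordial to large antral. A 430B probe set of Trim2 reached 100 on all 20 arrays, with a mean of 241. Trim9, a neuronal member that binds the netrin receptor, had means of 535, 623, 557, 503 and 429. Neither gene had a call in any of the 5 comparisons with the probe sets whose stage means are given. The other 19 tested genes gave 3 rises and 3 falls into the primary stage, between -0.98 and 0.69, and 2 rises and 1 fall with unmixed values, between -0.90 and 0.86, beside 16.8% and 18.4% of all probe sets unmixed. From primary to large antral they gave 3 rises and 1 fall, between -0.57 and 0.65, beside 12.8% and 14.0% of all. Most of these genes were read on 430A, where 19.6% of all probe sets rose and 21.6% fell. Trim11 had the highest value at both, 0.69 ± 0.12 into the primary stage (0.86 unmixed) and 0.65 ± 0.12 through growth.

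By domain, the 23 tested SPRY genes gave 9 rises and 3 falls into the primary stage (median 0.36), beside 18.6% and 24.3% of all probe sets. Most of these genes were read on 430A, where 26.5% of all rose and 30% fell at this step. With unmixed values these were 7 rises and 2 falls (median 0.05), beside 16.8% and 18.4%. In large antral over primary oocytes 6 rose and 7 fell (median 0.00), beside 12.8% and 14.0%, or 19.6% and 21.6% on 430A. The 4 NHL genes gave 1 rise (Trim32) and 1 fall (Trim71) through growth. Of the 2 PHD and bromodomain genes tested, Trim24 rose and Trim33 fell. Both genes with a transmembrane segment, Trim13 and Trim59, rose.

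Of the family members under other names, 2 of 4 had a call. Mefv (pyrin), Mid1, Mid2 and Pml were all tested, and Mid1, a microtubule-bound ligase, was the only one called in large antral over primary oocytes (0.78 ± 0.30, adjusted p = 0.0433). Pml, scaffold of nuclear bodies, was called at 1.03 ± 0.42 (adjusted p = 0.0408) into the primary stage, lost unmixed (0.94, adjusted p = 0.0903). Mean signals of Mid1 (68.7) and Pml (72.8) lay under 100, and none of the 4 was called by the F test over the growing stages. On 430A, where all 4 were read, 19.6% of all probe sets rose from primary to large antral and 26.5% into the primary stage. Mefv and Mid2 had no call, with 0.00 and -0.04 from primary to large antral.

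RING ligases take ubiquitin from E2 enzymes, which E1 enzymes load. Of 27 tested E1 and E2 genes, 7 rose and 10 fell in large antral over primary oocytes, with a median of 0.02. Most were read on 430A, where 19.6% of all probe sets rose and 21.6% fell, beside 12.8% and 14.0% on both array types. Ube2v1 (-2.51 ± 0.22, adjusted p = 2.16e-08), Ube2c, which serves the anaphase-promoting complex (-1.33 ± 0.09, adjusted p = 6.48e-10), and the E1 enzyme Uba6 (-1.21 ± 0.11, adjusted p = 3.14e-08) fell, and Ube2t, of the Fanconi anaemia pathway, rose (0.88 ± 0.10, adjusted p = 2.74e-07). Of 16 tested genes of nucleic acid sensing, into which Trim25, Trim31 and Trim56 feed, 2 rose and 1 fell over the same span. Most of these were read on 430A too, and the shares of all probe sets are those given above. Ddx58, which encodes RIG-I, rose by 1.34 ± 0.14 (adjusted p = 4.93e-07), Tlr3, a sensor of double-stranded RNA, by 2.17 ± 0.25 (adjusted p = 8.08e-07), and Ifnar1, an interferon receptor chain, fell by 0.50 ± 0.12 (adjusted p = 0.00254). The mean signal of Tlr3 over all arrays was 105, near the minimum used for testing.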

How the data were processed

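The deposited value is a signal on a linear scale, an intensity that the authors made with MAS5 per the submitters' processing notes; version and scaling are not given in the sources used here. Stage and replicate came from the sample titles. Arrays were brought to the same 2% trimmed mean (500), then log2(signal + 32) was taken. Within each array type, limma 3.58.1 (R 4.3.3) was run (lmFit, eBayes with trend, two-sided), over all probe sets with a signal of 100 on 4 of 20 arrays (15845 on 430A, 19115 on 430B). The step from primordial to primary used all 20 arrays (15 residual degrees of freedom), and the other comparisons the 16 growing-stage arrays (12), so that the mixed primordial columns did not set their spread. With 4 arrays a stage, the median standard error was 0.17 on 430A and 0.34 to 0.35 on 430B, so smaller changes were detectable on 430A.

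Symbols came from the platform annotation (a single symbol for 20380 of the 22626 on 430A and 14565 of the 22411 on 430B), and 20351 and 14390 matched the RefSeq table with 0 symbols changed. A tested probe set stood for a gene before an untested one, then 430A before 430B, then the higher mean signal. The text names genes called in a step or from primary to large antral with a change of at least 1 and no overlap. It also names the 5 genes of highest growing-stage signal per array type, ranked by the probe sets that stood for genes. Further named are 14 genes of known roles, 4 members under other symbols, and the called list genes of smallest p. Genes with a tested 430A probe set were thus not ranked on 430B. Trim35, for example, averaged 1874 over growing samples on 430B but 125 on 430A. The stronger 430B probe set averaged 2183 over all 20 arrays, so its deposited primordial mean lay above its growing mean. Trim35 is counted above by its 430A probe set alone. Members, lists and tests were chosen with earlier results of these data known. Same-numbered replicates did not deviate together (correlations of -0.08 to 0.13 on 430A and -0.04 to 0.06 on 430B), so no block was used. On simulated arrays, secondary to small antral, changes of 1 were recovered for 84% of 50 probe sets on 430A and 30% on 430B. More probe sets were called at this step in the data (2754 on 430A and 982 on 430B) than were changed in the simulation. Its shares therefore do not measure recovery in the data. A planned search of member proteins for RING and B-box spacing was not run. Alternatives were other scalings, pseudocounts, filters, fits, unmixed primordial values and leaving out arrays; a stage left with 1 array was assumed to vary like the others.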

Additional observations from a re-analysis of the deposited data

Results flagged for a closer look

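Among 240 groups of 4 arrays (48 genes at 5 stages, primordial values unmixed), 9 (3.75%) held an array whose distance from the nearest other passed Dixon's critical value. Chance alone gives about 1 in 20. High signals were those of Trim11 in primary replicate 1 (858.4), Trim16 in secondary replicate 1 (212.4), Trim17 in secondary replicate 3 (148.7), Trim26 in secondary replicate 3 (795.1), Trim3 in small antral replicate 2 (486.9) and Trim42 in primary replicate 3 (118.2). Low ones were those of Trim10 in primordial replicate 1 (22.8), Trim2 in primary replicate 4 (60.2) and Trim25 in large antral replicate 1 (69.7).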

How the results depend on the processing

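Of 75 called gene changes, 0 turned direction under any alternative, and 38 kept their call under all. Scaling to the same median lost 14, no mean-variance trend 11, no filter on low signals 8 and quantile normalization 6. A lower and a higher pseudocount lost 1 each. A mean signal of 100 as the filter lost 0 of 74, the 8 arrays of the compared stages 6, and leaving out the 3 small antral arrays of doubtful label 4. With all 20 arrays, 6 of 49 changes among growing stages were lost. Of 26 changes into the primary stage, unmixed values lost 8 and primordial replicate 1 alone lost 8. The replicate block kept 72 of the 75 and gave 23 up and 17 down into the primary stage, beside 23 and 19 without it.

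Counts of member probe sets moved by over 1.5 times as follows, the cause not tested unless fewer arrays are the change itself. Into the primary stage, 23 rises became 15 with unmixed values, and 19 falls became 10 with the same median, 11 unmixed and 9 with replicate 1 alone. Small antral over secondary, 8 falls became 5 with the same median and 4 in fits of 8 arrays. Large over small antral, 3 rises became 1 with the same median, with no filter and with no trend, and 7 falls became 4 with no trend and 4 with all 20 arrays. Leaving out 1 array gave 3 to 5 falls in secondary over primary (3 without secondary replicate 1 or 4). It gave 1 to 3 rises and 5 to 8 falls in small antral over secondary (1 rise without secondary replicate 1, 3 or 4 or small antral replicate 2; 5 falls without secondary or small antral replicate 2). In large over small antral it gave 1 to 3 rises and 4 to 9 falls (1 rise without small antral replicate 1 or large antral replicate 1, 2 or 3; 4 falls without small antral replicate 1 or 3 or large antral replicate 1 or 2). Noise at low signal and the wider spread on 430B limit what these 4 arrays a stage could show.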
